A study of Mus musculus with 19 samples.

Results

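Cholesterol synthesis, uptake and efflux were followed here through 30 genes, chosen by symbol and matched to the Ensembl identifiers of the count table through GENCODE mouse, of 56980 genes in the table. All 30 were measured in every mouse and passed the filter on low counts, which left 18739 genes for testing. They comprised 7 enzymes of the mevalonate steps, 11 of the squalene and sterol steps, 5 regulators of the SREBP transcription factors, 2 genes of sterol transfer and esterification, and 5 genes of the liver X receptors (LXR) and of efflux.

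Cells build cholesterol from acetyl-CoA through mevalonate, isoprenoids, squalene and lanosterol. SREBP-2, held in the endoplasmic reticulum by the INSIG proteins and carried to the Golgi by SCAP when sterols are scarce, drives transcription of this pathway, while oxysterol-activated LXR drives genes of efflux and lipid export. In macrophages and microglia these programs handle the cholesterol of engulfed membrane and myelin, and in the brain oligodendrocytes and astrocytes make most of the sterol.

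The cells were CD11b+ cells enriched with magnetic beads from the brains, without olfactory bulb and cerebellum, of male mice aged 3 to 4 months. *PARK7*/DJ-1 KO mice carry a gene trap in *Park7* in all cells, on a B6;129P2 background backcrossed to C57BL/6NCrl, and their wildtype littermates served as controls. Mice received LPS (4 μg/g body weight) or PBS intraperitoneally, and the cells were isolated 6 h later. The groups were wildtype with PBS (baseline, n = 4), wildtype with LPS (n = 5), KO with PBS (n = 5) and KO with LPS (n = 5), with 1 library per mouse. CD11b also marks monocytes, neutrophils and border-associated macrophages, and the gene trap was present in every cell type, so that a difference cannot be assigned to microglia or to *Park7* loss within them.

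Total counts per library ranged from 11936364 to 22788884, so that 3 counts correspond to 0.138 to 0.256 CPM (read counts relative to library size, scaled with TMM), a limit that covers counting error only. The targeted gene was at 20.6 to 32.1 CPM in the 9 wildtype and at 0.457 to 5.38 CPM in the 10 KO libraries, with no overlap. The 7 matched of 8 microglial markers were detected in every group and summed to 16577 to 26362 CPM in wildtype and 17701 to 26791 CPM in KO mice at baseline, against 5336 to 9527 and 5939 to 9829.9 CPM after LPS, and all 7 were lower after LPS in both genotypes. Monocyte markers (5 of 5 higher after LPS in each genotype) summed to 35.3 to 50.8 and 27.8 to 62.3 CPM at baseline and to 217 to 363 and 137 to 352 CPM after LPS, and neutrophil markers (4 of 6 higher in wildtype, 5 of 6 in KO) to 30.2 to 57.4 and 12.6 to 97.3 CPM at baseline and 111 to 334 and 83.0 to 337 CPM after LPS, in wildtype and KO respectively. Summed border-associated macrophage markers lay at 365 to 465 and 348 to 453 CPM at baseline and at 204 to 408 and 199.8 to 357 CPM after LPS, neuronal markers at 26.6 to 303 CPM and endothelial markers at 70.4 to 1058 CPM over all mice. In each genotype 2 of 4 border-associated macrophage and 2 of 5 endothelial markers were lower after LPS, and 1 endothelial marker was higher in KO mice. Of 6 neuronal markers, 1 was higher in each genotype and 1 lower in wildtype mice. In such bulk samples, fewer cells of a type and less RNA per cell cannot be told apart, and the part of these other cells in the LPS results was not tested.

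At baseline, the members spanned more than 2 orders of magnitude per length of transcript, from *Abca1* at the top to *Fdps* at the bottom. *Abca1*, the membrane transporter that loads lipid-poor apolipoproteins with cholesterol, stood at 114 ± 15.1 CPM per kb (mean ± SD over the 4 wildtype mice, with the Ensembl canonical transcript as length), next to *Mylip* at 94.5 ± 17.5, the ubiquitin ligase induced by LXR that degrades lipoprotein receptors. The transporter *Abcg1*, which passes cholesterol to mature lipoprotein particles, followed at 54.0 ± 8.88, and *Nr1h2* (LXRβ) at 30.9 ± 0.457 CPM per kb. The intervals of mean ± SD overlapped for *Abca1* and *Mylip*, and for *Soat1*, *Srebf2*, *Srebf1* and *Insig1* at ranks 6 to 9. Because *Srebf2* and *Srebf1* varied widely between mice, their intervals also overlapped that of *Scap* above them and those of *Ebp* and *Hmgcs1* below. The interval of *Hmgcs1* overlapped that of *Insig1* as well, and that of *Msmo1* overlapped that of *Srebf1*. The other LXR, *Nr1h3* (LXRα), was ranked 29 of 30 at 0.932 ± 0.267 CPM per kb, the levels of the pair of receptors differing by a wide margin.

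The chaperone *Scap*, which escorts SREBPs out of the endoplasmic reticulum, was at 26.4 ± 0.986 CPM per kb. *Soat1*, the enzyme that esterifies cholesterol for storage, was at 23.8 ± 1.18, *Srebf2* at 23.8 ± 6.09 and *Srebf1* at 22.1 ± 6.46 CPM per kb, and the sterol sensors *Insig1* and *Insig2* at 21.8 ± 2.43 and 11.6 ± 1.02. Among the 18 synthesis enzymes, *Ebp*, the sterol isomerase, and *Hmgcs1*, which makes HMG-CoA, had the highest means at 16.9 ± 1.05 and 16.7 ± 3.49 CPM per kb. The C4-demethylating oxidase *Msmo1* followed at 14.5 ± 2.83, and its interval of mean ± SD overlapped those of *Ebp* and *Hmgcs1*, which also overlapped each other. The 13 enzymes and the transfer protein *Stard4* between ranks 14 and 27 had levels of 1.90 (*Hsd17b7*) to 8.16 CPM per kb (*Dhcr7*), falling in small steps. The lowest 3 members were *Idi1* at 1.16 ± 0.344, *Nr1h3*, and *Fdps*, the farnesyl diphosphate synthase, at 0.577 ± 0.0963 CPM per kb. The spread between baseline wildtype mice was smallest for *Nr1h2* (coefficient of variation 1.48%) and largest for *Sqle* (48.7%), while for *Nr1h3* it was 28.6% at baseline, 12.8% in LPS-treated wildtype and 48.9% in LPS-treated KO mice.

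**Figure D1:**
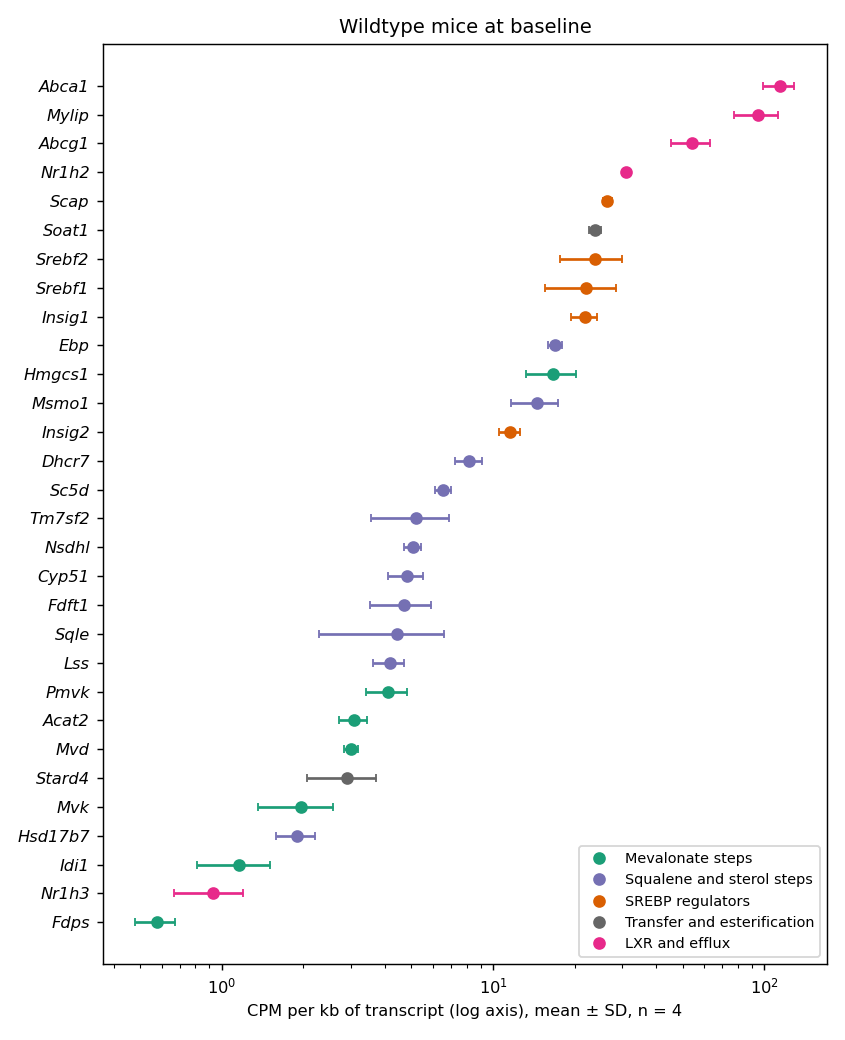
Level of each member in the 4 wildtype mice at baseline, as CPM per kb of its canonical transcript on a log axis (point: mean; whiskers: SD), coloured by role. LXR and efflux genes hold ranks 1 to 4, while *Nr1h3* is at rank 29 and *Fdps* at rank 30.

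Some of these levels were uncertain because sequence is shared with other genes. Of the 75-base stretches of the *Acat2* transcript, 34.1% were found in the same orientation in another annotated transcript, chiefly of *Acat3*, as were 34.7% for *Fdps* and 24.2% for *Idi1* (chiefly pseudogenes). For *Hmgcs1* and *Fdft1* the share was 6.17% and 6.47%, and for the other 25 members it was under 1%. Antisense neighbours covered 32.7% of *Fdft1* (*Ctsb*), 26.0% of *Cyp51* (*Akap9*), 14.5% of *Sqle* (*Washc5*) and 14.0% of *Acat2* (*Tcp1*). The share in the opposite orientation was 10.3% for *Hmgcs1*, 10.2% for *Scap* and 7.56% for *Nsdhl*, and at most 4.72% for the remaining members. The libraries were stranded, but the strand setting of the counting is not given in the sources used here, so reads of these members and of the antisense genes cannot be told apart.

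Promoter sequence was available for 25 of the 30 members in the RefSeq table (build GRCm38.p6), as the 250 bases before each annotated start. The 5 not matched were *Abcg1*, *Fdft1*, *Fdps*, *Sqle* and *Stard4*. Letters of 7 motifs were searched on both strands. The CCAAT box, bound by NF-Y, occurred in a window of 20 of 25 members against 37.5% of the 27025 genes in the table, and the GC box GGGCGG, bound by Sp1, in 21 of 25 against 35.4%, without a test and with 6 members having more than 1 window. The SRE-like TCACNCCAC, a form of the site of SREBPs, occurred in 1 member (*Hmgcs1*, 1.22% of genes), and the E-box CACGTG in 6 members (*Abca1*, *Dhcr7*, *Hsd17b7*, *Insig1*, *Sc5d* and *Scap*, 6.86% of genes). The IRF-like GAAANNGAA was in the window of *Ebp* alone (8.18% of genes). Neither the kappa-B-like GGGANTTCC (1.63% of genes) nor the DR4 repeat to which LXR binds (0.0148% of genes) was found in these windows of members, which says only that these letters are absent there.

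The windows of 5 members are shown because they set enzymes that rose after LPS (*Acat2*, *Hsd17b7*) beside the only member with an SRE-like match (*Hmgcs1*), and *Abca1*, which rose, beside *Mylip*, another LXR target, which was lower. Each runs 5′ to 3′ on the strand of its gene and stops before the first annotated exon of that gene, capitals marking the motif matches (ATTGG and CCGCCC are the CCAAT and GC boxes on the other strand). By exact match to GRCm39, they lie at chr13:120151637-120151886 (plus strand), chr17:13179642-13179862 (minus), chr1:169796814-169797024 (minus), chr4:53159901-53160145 (minus) and chr13:45542968-45543214 (plus). The first overlapped exons of the antisense lncRNA *Gm60502* by 140 bases and the third those of *3110045C21Rik* by 110 bases.
Hmgcs1: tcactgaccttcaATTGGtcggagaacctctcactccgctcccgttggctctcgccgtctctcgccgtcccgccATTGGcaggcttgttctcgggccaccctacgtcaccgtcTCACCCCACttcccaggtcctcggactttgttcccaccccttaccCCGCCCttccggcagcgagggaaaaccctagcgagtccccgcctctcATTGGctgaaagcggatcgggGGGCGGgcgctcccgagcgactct
Acat2: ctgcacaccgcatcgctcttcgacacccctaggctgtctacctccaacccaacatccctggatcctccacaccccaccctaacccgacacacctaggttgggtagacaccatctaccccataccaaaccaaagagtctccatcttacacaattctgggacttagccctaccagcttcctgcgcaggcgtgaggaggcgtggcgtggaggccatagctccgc
Hsd17b7: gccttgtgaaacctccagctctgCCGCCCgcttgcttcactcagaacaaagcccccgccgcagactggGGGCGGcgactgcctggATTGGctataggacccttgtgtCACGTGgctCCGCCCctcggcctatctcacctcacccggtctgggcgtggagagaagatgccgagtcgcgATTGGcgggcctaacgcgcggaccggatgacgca
Abca1: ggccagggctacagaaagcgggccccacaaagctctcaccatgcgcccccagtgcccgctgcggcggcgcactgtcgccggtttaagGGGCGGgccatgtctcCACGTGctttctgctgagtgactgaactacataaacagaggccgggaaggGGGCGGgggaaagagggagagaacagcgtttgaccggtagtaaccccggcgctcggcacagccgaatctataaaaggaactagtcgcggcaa
Mylip: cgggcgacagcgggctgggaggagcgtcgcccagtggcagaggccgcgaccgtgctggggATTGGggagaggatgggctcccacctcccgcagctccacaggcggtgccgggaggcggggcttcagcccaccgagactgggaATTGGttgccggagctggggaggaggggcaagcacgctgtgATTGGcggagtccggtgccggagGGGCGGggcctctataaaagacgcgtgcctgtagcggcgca
The *Hmgcs1* window held the SRE-like site, 3 CCAAT boxes and 2 GC boxes, and that of *Hsd17b7* 2 CCAAT boxes, 3 GC boxes and an E-box. The *Acat2* sequence held none of the 7 motifs upstream of its first exon, its single GC box lying in the 29 bases left out. *Abca1* had 2 GC boxes around an E-box, and *Mylip* 3 CCAAT boxes and a GC box.

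LPS moved members in both directions and at different points of the pathway. At an adjusted p under 0.05 and an absolute log2 fold change (log2FC) of at least 0.5, in the quasi-likelihood test of edgeR with Benjamini-Hochberg adjustment over all tested genes, 10 of 30 members were higher and 4 lower in wildtype mice, where 18.4% of all tested genes were higher and 17.4% lower. In KO mice 10 of 30 were higher and 5 lower, against 20.1% and 19% of all genes. Their median log2FC was 0.40 in wildtype and 0.28 in KO mice, and -0.06 and -0.01 over all genes tested. The same 9 members were higher and the same 3 lower in both genotypes, and 13 were called in neither.

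**Figure D2:**
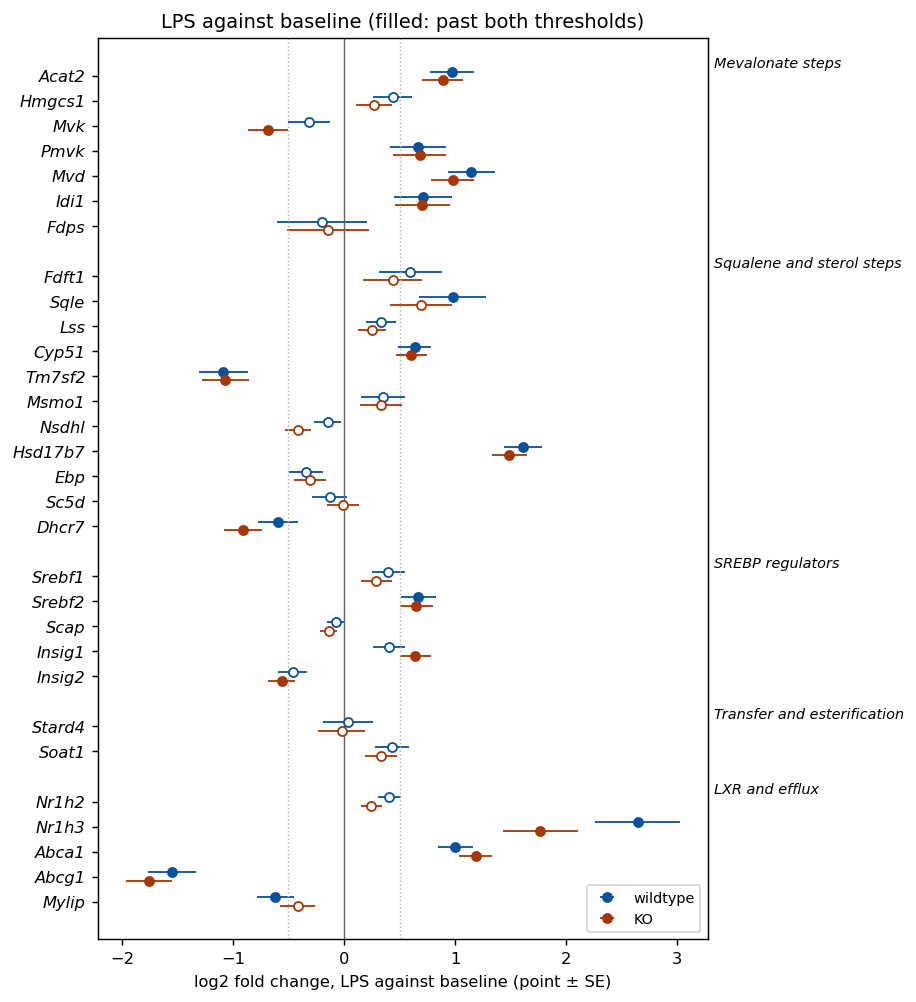
Log2FC of LPS against baseline (point) with its SE (line) for the 30 members by role, in wildtype (blue) and KO mice (brown), filled where past both thresholds and with dotted lines at 0.5 in either direction. *Nr1h3* and *Hsd17b7* reach furthest to the right and *Abcg1* and *Tm7sf2* furthest to the left in both genotypes.

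Among the 7 enzymes of the mevalonate steps, 4 rose in each genotype (*Acat2*, *Pmvk*, *Mvd* and *Idi1*), and *Mvk* fell in KO mice, where 18.4% of all tested genes were higher in wildtype and 20.1% in KO mice, and 19% lower in KO mice. The 1 lower enzyme is near that background, and the calls of *Pmvk* and *Idi1* were not stable. *Mvd* (ENSMUSG00000006517, chr8:123160336-123170324, minus strand) decarboxylates mevalonate diphosphate to the first isoprenoid. It was at 5.58, 5.45, 6.24 and 5.77 CPM in the 4 PBS-treated wildtype mice and at 10.8, 12.8, 13.4, 12.5 and 14.2 CPM in the 5 given LPS. All 5 LPS-treated wildtype mice exceeded all 4 controls. In KO mice the values were 5.59, 6.33, 7.62, 5.24 and 3.89 CPM with PBS and 12.8, 14.6, 6.70, 11.1 and 11.3 CPM with LPS, and the third LPS-treated mouse lay inside the range of its controls while the other 4 lay above it. The log2FC was 1.15 ± 0.21 (SE) in wildtype (edgeR adjusted p = 0.000206) and 0.98 ± 0.19 in KO mice (adjusted p = 0.000381).

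*Acat2* (ENSMUSG00000023832, chr17:13161367-13179641, minus strand), the cytosolic thiolase that joins acetyl-CoA units, was at 8.18, 9.46, 7.88 and 7.14 CPM in the 4 PBS-treated wildtype mice and at 10.9, 15.8, 16.4, 20.8 and 16.2 CPM in the 5 given LPS. In the KO groups it was at 11.5, 9.75, 8.69, 7.96 and 5.62 CPM with PBS and 18.2, 15.03, 13.6, 16.6 and 17.1 CPM with LPS. The LPS-treated mice lay above the controls in both genotypes with no overlap, and the log2FC was 0.97 ± 0.20 in wildtype and 0.89 ± 0.18 in KO mice (edgeR adjusted p = 0.000582 and 0.000573). The share of its sequence found in *Acat3* applies to these values.

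*Pmvk*, which phosphorylates phosphomevalonate, was at 4.17, 6.12, 4.53 and 4.78 CPM in the 4 PBS-treated wildtype mice and at 9.54, 8.09, 5.84, 10.01 and 5.37 CPM in the 5 given LPS, and the groups overlapped through LPS-treated mice 3 and 5. Its KO values were 6.14, 4.76, 4.27, 4.87 and 3.62 CPM with PBS and 7.82, 4.52, 11.5, 6.94 and 7.22 CPM with LPS, again with overlap. The isopentenyl diphosphate isomerase *Idi1* was at 2.14, 3.33, 2.43 and 4.10 CPM in the 4 PBS-treated wildtype mice and at 4.12, 4.47, 4.76, 6.31 and 4.95 CPM in the 5 given LPS, the highest control just below the lowest LPS-treated mouse. In KO mice it was at 3.56, 2.12, 2.13, 3.20 and 2.48 CPM with PBS and 5.01, 4.86, 4.85, 4.87 and 2.38 CPM with LPS, where the fifth LPS-treated mouse fell within the control range and the other 4 stood close together above it. The log2FC of *Pmvk* was 0.67 ± 0.26 and 0.68 ± 0.24 and that of *Idi1* 0.71 ± 0.26 and 0.71 ± 0.24 in wildtype and KO mice (edgeR adjusted p = 0.0436, 0.025, 0.0352 and 0.0239). Both calls depended on single mice and on settings of the fit. With all mice kept, both were lost in both genotypes with no filter on low counts, that of *Pmvk* in wildtype also with at least 10 counts in every library, and that of *Idi1* in KO mice also with edgeR on the compared groups only. That of *Pmvk* was lost in wildtype without control 1, 3 or 4 or without LPS-treated mouse 1, 2 or 4 (log2FC 0.56 to 0.68) and in KO without control 3 or 5 or LPS-treated mouse 3 (0.49 to 0.66). That of *Idi1* was lost in wildtype without control 1 or 3 or LPS-treated mouse 4 or 5 (0.58 to 0.71) and in KO without control 2 or 3 (0.63 to 0.64).

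Mevalonate kinase, encoded by *Mvk*, went the other way. It was at 7.09, 13.8, 7.95 and 9.69 CPM in the 4 PBS-treated wildtype mice and at 8.05, 6.25, 6.87, 9.17 and 8.27 CPM in the 5 given LPS, with overlap. In KO mice it was at 10.6, 10.8, 10.5, 9.17 and 9.18 CPM with PBS and 7.76, 6.29, 5.26, 6.26 and 5.63 CPM with LPS, with every LPS-treated mouse below every control. The log2FC was -0.68 ± 0.18 in KO (edgeR adjusted p = 0.00379) and -0.32 ± 0.19 in wildtype mice (adjusted p = 0.195), and the difference between genotypes was -0.37 ± 0.26 (adjusted p = 1). Without wildtype control 2, the highest in *Mvk*, the wildtype log2FC was -0.08 and the difference -0.60 ± 0.23 (edgeR adjusted p = 1). *Hmgcs1* was at 50.9 to 117 CPM over all mice with a log2FC of 0.44 ± 0.17 and 0.27 ± 0.16, short of the fold threshold in both genotypes. *Fdps* was at 0.286 to 1.56 CPM with 5 to 26 counts per library. Its log2FC was -0.20 ± 0.40 and -0.14 ± 0.37, and with SE this wide a change of the size of that in *Pmvk* could go uncalled. The parts of depth, shared sequence and spread between mice in this SE were not tested.

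Of the 11 enzymes of the squalene and sterol steps, 3 were higher and 2 lower in wildtype and 2 and 2 in KO mice, counts near the shares of all tested genes (18.4% higher and 17.4% lower in wildtype and 20.1% and 19% in KO mice). *Hsd17b7* (ENSMUSG00000026675, chr1:169777093-169796813, minus strand), the reductase that removes the 3-keto group during C4 demethylation, was at 7.14, 10.5, 9.13 and 8.26 CPM in the 4 PBS-treated wildtype mice and at 23.1, 28.1, 23.4, 34.5 and 24.6 CPM in the 5 given LPS. KO mice had 11.7, 10.3, 11.9, 8.90 and 7.35 CPM with PBS and 27.6, 33.1, 26.3, 29.7 and 24.3 CPM with LPS. Each LPS-treated mouse exceeded each control of its genotype by a wide gap. With a log2FC of 1.61 ± 0.17 (3.05-fold, edgeR adjusted p = 5.00e-07) in wildtype and 1.49 ± 0.16 (2.81-fold, adjusted p = 3.48e-07) in KO mice, it rose most among the 18 enzymes.

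*Sqle*, the squalene epoxidase, was at 6.36, 20.7, 10.1 and 12.8 CPM in the 4 PBS-treated wildtype mice and at 16.1, 30.1, 25.8, 29.8 and 21.0 CPM in the 5 given LPS. KO mice had 16.1, 11.3, 14.2, 17.4 and 17.8 CPM with PBS and 30.8, 23.9, 19.02, 36.2 and 14.4 CPM with LPS. The groups overlapped in both genotypes, and the second wildtype control was the highest of all controls. The log2FC was 0.98 ± 0.30 in wildtype (edgeR adjusted p = 0.0141) and 0.69 ± 0.28 in KO mice, which missed the threshold (adjusted p = 0.0507). Without wildtype control 1 the first call was lost (log2FC 0.76), and without KO LPS-treated mouse 3 or 5 the second was made (log2FC 0.78 and 0.84). The lanosterol demethylase *Cyp51* was at 19.3, 27.6, 23.3 and 25.3 CPM in the 4 PBS-treated wildtype mice and at 28.9, 38.4, 40.4, 42.5 and 35.1 CPM in the 5 given LPS. The KO values were 26.4, 27.0, 23.5, 21.0 and 21.3 CPM with PBS and 38.9, 33.6, 36.2, 44.4 and 28.4 CPM with LPS, with no overlap in either genotype. Its log2FC was 0.63 ± 0.15 and 0.61 ± 0.14 (edgeR adjusted p = 0.00167 and 0.0012).

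A pair of sterol reductases fell. *Tm7sf2* (ENSMUSG00000024799, chr19:6112851-6118403, minus strand), a C14 sterol reductase that acts right after *Cyp51*, was at 5.21, 10.97, 6.57 and 8.26 CPM in the 4 PBS-treated wildtype mice and at 3.64, 4.41, 3.55, 3.19 and 3.41 CPM in the 5 given LPS. Among KO mice the values were 8.10, 5.87, 7.47, 8.33 and 8.75 CPM with PBS and 4.33, 3.20, 4.55, 3.64 and 2.60 CPM with LPS. LPS-treated mice lay below controls without overlap, the second wildtype control being the highest. The log2FC was -1.09 ± 0.22 and -1.07 ± 0.21 (edgeR adjusted p = 0.000524 and 0.00033), so that *Tm7sf2* and *Cyp51*, of adjacent steps, moved in opposite directions. *Dhcr7*, the reductase that makes cholesterol from its 7-dehydro precursor, was at 22.0, 28.0, 22.7 and 23.8 CPM in the 4 PBS-treated wildtype mice and at 18.4, 17.8, 17.3, 13.5 and 13.0 CPM in the 5 given LPS. KO mice had 27.7, 25.7, 24.6, 23.7 and 20.2 CPM with PBS and 15.1, 16.9, 9.51, 14.7 and 8.88 CPM with LPS, also without overlap. It fell by 0.59 ± 0.18 and by 0.91 ± 0.17 on the log2 scale (edgeR adjusted p = 0.0125 and 0.000241), and the wildtype value was -0.50 without wildtype control 2, short of the thresholds.

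The other 6 sterol enzymes were called in neither genotype. Squalene synthase (*Fdft1*) ranged over 11.2 to 34.8 CPM with log2FC of 0.60 ± 0.29 and 0.44 ± 0.27, lanosterol synthase (*Lss*) over 20.6 to 36.6 CPM with 0.33 ± 0.14 and 0.25 ± 0.13, and *Msmo1* over 28.1 to 66.8 CPM with 0.35 ± 0.20 and 0.33 ± 0.19, all above 0 in both genotypes. The C4 decarboxylase *Nsdhl* (8.81 to 15.1 CPM), *Ebp* (17.6 to 31.6 CPM) and the desaturase *Sc5d* (22.8 to 39.2 CPM) had log2FC from -0.41 to -0.01, and *Nsdhl* in KO mice was below an adjusted p of 0.05 without the fold threshold (edgeR adjusted p = 0.00709). Over both parts of the pathway, 7 enzymes were called higher and 2 lower of 18 in wildtype, and 6 higher and 3 lower in KO mice. Set against the shares of all tested genes (18.4% higher and 17.4% lower in wildtype and 20.1% and 19% in KO mice), the counts of lower enzymes were not above the background.

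Of the regulators, *Srebf2* (ENSMUSG00000022463, chr15:82031382-82093201, plus strand), which encodes the SREBP that acts chiefly on cholesterol genes, was at 93.9, 165, 107.6 and 117 CPM in the 4 PBS-treated wildtype mice and at 154, 213, 194, 204 and 196 CPM in the 5 given LPS. In KO mice it was at 148, 116, 115, 108.3 and 107.7 CPM with PBS and 233, 159, 196, 179 and 168 CPM with LPS. KO groups did not overlap, whereas in wildtype mice the lowest LPS-treated mouse lay below the highest control, the second one. The log2FC was 0.67 ± 0.16 and 0.65 ± 0.15 (edgeR adjusted p = 0.0018 and 0.00112). *Insig1*, which retains SREBPs when sterols are plentiful and is itself an SREBP target, was at 55.7, 69.3, 54.8 and 58.6 CPM in the 4 PBS-treated wildtype mice and at 73.5, 77.4, 76.2, 93.5 and 74.3 CPM in the 5 given LPS. KO mice showed 57.9, 46.3, 57.0, 63.5 and 60.6 CPM with PBS and 71.1, 77.4, 83.1, 86.0 and 127 CPM with LPS, again without overlap and with the fifth LPS-treated KO mouse far above the rest. Its log2FC was 0.41 ± 0.15 in wildtype, short of the fold threshold (edgeR adjusted p = 0.0317), and 0.64 ± 0.14 in KO mice (adjusted p = 0.000745), where it was 0.48 without that mouse. Its relative *Insig2* lay at 28.4 to 34.9 CPM with PBS and 22.6 to 24.9 CPM with LPS in wildtype (log2FC -0.46 ± 0.13, edgeR adjusted p = 0.00699) and at 33.6 to 35.9 and 17.4 to 28.5 CPM in KO mice (-0.56 ± 0.12, adjusted p = 0.000877). The groups of *Insig2* did not overlap, and only the KO value passed the fold threshold, which it missed without KO LPS-treated mouse 3 or 5 (-0.49 and -0.47). *Srebf1* (71.0 to 145 CPM, log2FC 0.40 ± 0.15 and 0.29 ± 0.14) and *Scap* (94.4 to 124 CPM, -0.07 ± 0.08 and -0.14 ± 0.08) were not called. Among genes of transfer and storage, *Stard4* had log2FC of 0.04 ± 0.23 and -0.02 ± 0.21, and *Soat1* of 0.43 ± 0.15 and 0.34 ± 0.14, neither past the thresholds.

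The LXR and efflux genes held the extreme values of the set. *Nr1h3* (ENSMUSG00000002108, chr2:91014394-91033417, minus strand) was at 1.62, 2.36, 1.38 and 2.55 CPM in the 4 PBS-treated wildtype mice and at 13.1, 12.03, 12.6, 9.95 and 14.2 CPM in the 5 given LPS. All LPS-treated wildtype mice lay far above all controls. In KO mice it was at 2.64, 2.59, 2.08, 2.41 and 1.78 CPM with PBS and 8.83, 9.43, 1.73, 12.03 and 7.15 CPM with LPS, the third LPS-treated mouse lying below the lowest control and the other 4 above the highest. The log2FC was 2.64 ± 0.38 (6.25-fold, edgeR adjusted p = 1.51e-05) in wildtype and 1.77 ± 0.34 (3.40-fold, adjusted p = 0.000262) in KO mice, or 2.02 ± 0.21 in KO without that mouse. *Nr1h2*, the other LXR, was at 58.9 to 94.2 CPM over all mice, and its log2FC of 0.41 ± 0.10 and 0.25 ± 0.10 stayed under the fold threshold.

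The efflux transporters went in opposite directions. *Abca1* (ENSMUSG00000015243, chr4:53030787-53159900, minus strand) was at 1308, 958, 1258 and 1163 CPM in the 4 PBS-treated wildtype mice and at 2172, 1850.1, 2389, 2692 and 2627 CPM in the 5 given LPS. In KO mice it was at 1194, 1217, 1221, 1198 and 1174 CPM with PBS and 2068, 2709.6, 2999, 2360.0 and 3511 CPM with LPS, and LPS-treated mice exceeded controls without overlap in both genotypes. *Abcg1* (ENSMUSG00000024030, chr17:31276649-31336969, plus strand) was at 379, 263, 335 and 285 CPM in the 4 PBS-treated wildtype mice and at 175, 99.9, 78.4, 104 and 83.1 CPM in the 5 given LPS. Its KO values were 338, 354, 302, 302 and 298 CPM with PBS and 70.4, 102, 139.7, 80.3 and 80.3 CPM with LPS, and all LPS-treated mice lay below all controls, the first wildtype one being the highest among them. The log2FC was 1.00 ± 0.16 and 1.18 ± 0.15 for *Abca1* and -1.55 ± 0.22 and -1.75 ± 0.21 for *Abcg1* (edgeR adjusted p = 4.52e-05, 2.56e-06, 1.10e-05 and 1.33e-06). *Mylip* was at 356, 239, 309 and 255 CPM in the 4 PBS-treated wildtype mice and at 217, 182, 223, 125 and 197 CPM in the 5 given LPS, every LPS-treated mouse lying below every control. The values of KO mice were 280.1, 273, 277, 239 and 263 CPM with PBS and 153, 234, 197, 172 and 241 CPM with LPS, and the fifth LPS-treated mouse lay above the lowest control. Its log2FC was -0.62 ± 0.16 in wildtype (edgeR adjusted p = 0.00486) and -0.42 ± 0.16 in KO mice, short of the fold threshold (adjusted p = 0.0343).

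**Figure D3:**
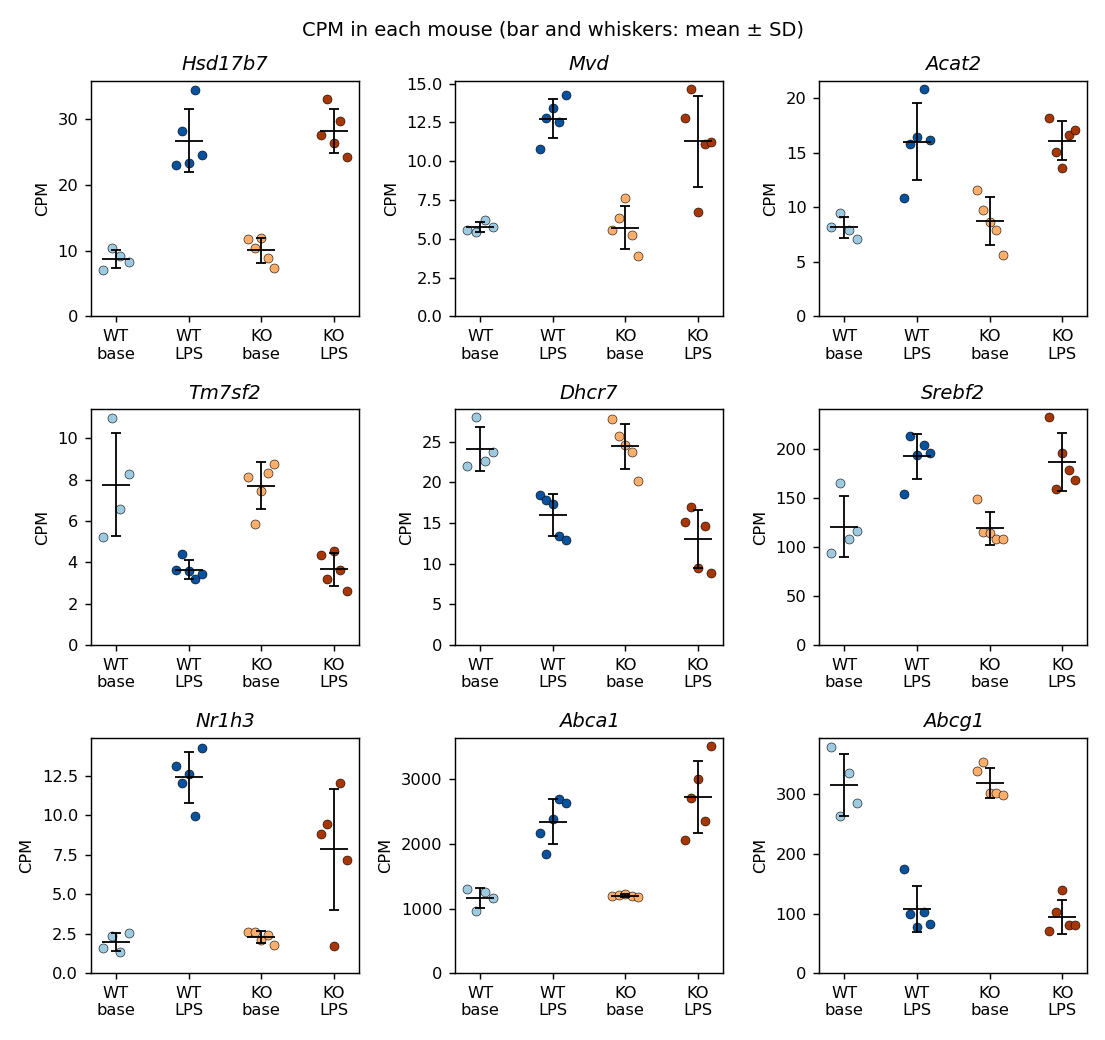
CPM of 9 members in each mouse by group (points: mice; bar and whiskers: mean ± SD; axes start at 0). LPS-treated mice lie above the controls of their own genotype for *Hsd17b7*, *Acat2* and *Abca1* and below them for *Tm7sf2*, *Dhcr7* and *Abcg1*, and 1 LPS-treated KO mouse lies within the range of KO controls for *Mvd* and just below it for *Nr1h3*.

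Other genes of the pathway were followed in 6 lists, whose counts stand against the shares of all tested genes (18.4% higher and 17.4% lower in wildtype and 20.1% and 19% in KO mice). Many of these lists are so short that a count of 1 or 2 is near that background. Of 5 oxysterol enzymes, *Ch25h*, which makes 25-hydroxycholesterol, lay at 0.591 to 1.24 CPM in wildtype controls and at 33.2 to 242 CPM after LPS, and rose by 7.32 ± 0.61 in wildtype and 6.71 ± 0.53 in KO mice on the log2 scale, while *Cyp27a1*, which makes 27-hydroxycholesterol, fell (-3.37 ± 0.28 and -2.86 ± 0.27). The remaining 3 did not pass. Of 7 lipoprotein and scavenger receptors, *Msr1* (5.51 ± 0.26 and 5.44 ± 0.24) and *Olr1* (1.85 ± 0.36 and 1.60 ± 0.33), which take up modified lipoproteins, rose, and *Cd36* (-2.54 ± 0.27 and -2.63 ± 0.26) and *Lrp1* (-1.29 ± 0.25 and -1.30 ± 0.24) fell in both genotypes.

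Of 9 genes of lysosomal release and transfer, 1 was higher and 3 lower in wildtype and 2 and 5 in KO mice, the higher counts being near the background. Lysosomal lipase *Lipa* (-1.25 ± 0.11 and -1.35 ± 0.10) and the lysosomal cholesterol exporter *Npc1* (-1.04 ± 0.14 and -1.11 ± 0.13) fell, and the esterifying enzyme *Soat2* rose (3.21 ± 0.33 and 3.59 ± 0.31, at 2.00 to 3.81 CPM in wildtype controls and 17.0 to 43.0 CPM after LPS), with *Gramd1a*, a sterol transfer protein, called in KO mice (0.97 ± 0.23). Of the 7 tested of 8 LXR partners and targets, 0 were called higher, a count that a list of this size does not set apart from the background, and 3 fell in wildtype and 4 in KO mice, among them the partner *Rxra* (-0.91 ± 0.16 and -1.09 ± 0.15) and the phospholipid enzyme *Lpcat3* (-0.90 ± 0.13 and -0.85 ± 0.13). Among 10 SREBP targets of fatty acid synthesis, *Fasn* (1.33 ± 0.20 and 1.40 ± 0.19) and *Acaca* (1.18 ± 0.14 and 1.06 ± 0.13), the synthase and the carboxylase before it, rose, and the desaturase *Fads1* fell (-1.10 ± 0.22 and -0.98 ± 0.21). Among 8 SREBP proteases and isoprenoid genes, *Pdss1* (1.74 ± 0.21 and 1.99 ± 0.20) and *Nus1* (0.89 ± 0.14 and 0.86 ± 0.13), of the ubiquinone and dolichol branches, rose, and the protease gene *Mbtps1* was lower in KO mice (-0.52 ± 0.08). All of these passed the same thresholds in edgeR's quasi-likelihood test.

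Some synthesis genes also varied between mice of the same group together with markers of other brain cells. The mean log2 CPM of 16 oligodendrocyte and astrocyte markers, their glial marker score, ran from 5.06 to 7.94, with a wide range in every group. Summed oligodendrocyte markers lay at 569 to 11483 CPM and astrocyte markers at 436 to 5213 CPM over all mice, none of them at 0. In a fit with the 4 groups and this score, which was added after the data were seen, 10 of 30 members rose with it and 0 fell at an adjusted p under 0.05, against 15.4% and 12.6% of all tested genes. Markers of cells outside the score moved with it too, all 6 of neurons (median slope 0.76) and all 5 of endothelium (0.74) rising, as did 8 of 10 SREBP targets of fatty acid synthesis (median 0.45, against 0.13 for the members). None of the microglial, monocyte, neutrophil and border-associated macrophage markers was called. At an unadjusted p under 0.05, 39.9% of all tested genes and 15 of 30 members had a slope, and of these members 13 rose and 2 fell, *Abca1* and *Mylip* (slopes -0.13 ± 0.06 and -0.13 ± 0.06, edgeR adjusted p = 0.0876 and 0.0924).

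The slopes, in log2 units per log2 unit of the score, were 0.34 ± 0.08 for *Fdft1*, 0.31 ± 0.10 for *Sqle*, 0.26 ± 0.07 for *Stard4*, 0.25 ± 0.06 for *Msmo1*, 0.22 ± 0.05 for *Hmgcs1* and 0.22 ± 0.03 for *Srebf2*, the last with the smallest p (edgeR adjusted p = 9.00e-05). These slopes join all 4 groups and need not hold in each, since the KO controls 4 and 5, with the lowest scores of their group (6.01 and 5.42), had its highest *Sqle* (17.4 and 17.8 CPM). *Sc5d*, *Srebf1*, *Cyp51* and *Lss* had slopes of 0.13 to 0.17. None of the 5 LXR and efflux genes passed the adjusted threshold, with slopes from -0.13 to 0.01. *Srebf2* at 165 CPM in the second wildtype control and at 148 CPM in the first KO control were the highest of their groups, as were the scores of these mice (7.93 and 7.40). The count depended on the score used, with 13 members rising by astrocyte markers alone and 3 by oligodendrocyte markers alone (*Srebf1*, *Srebf2* and *Hmgcs1*). With the score in the model, LPS log2FC of members moved by at most 0.03 in wildtype and 0.14 in KO mice, and 11 members were called higher in each genotype, *Fdft1* being added in wildtype (log2FC 0.57 ± 0.21) and *Sqle* in KO mice (log2FC 0.59 ± 0.22). Whether other brain cells or their RNA contribute to these levels was not tested.

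**Figure D4:**
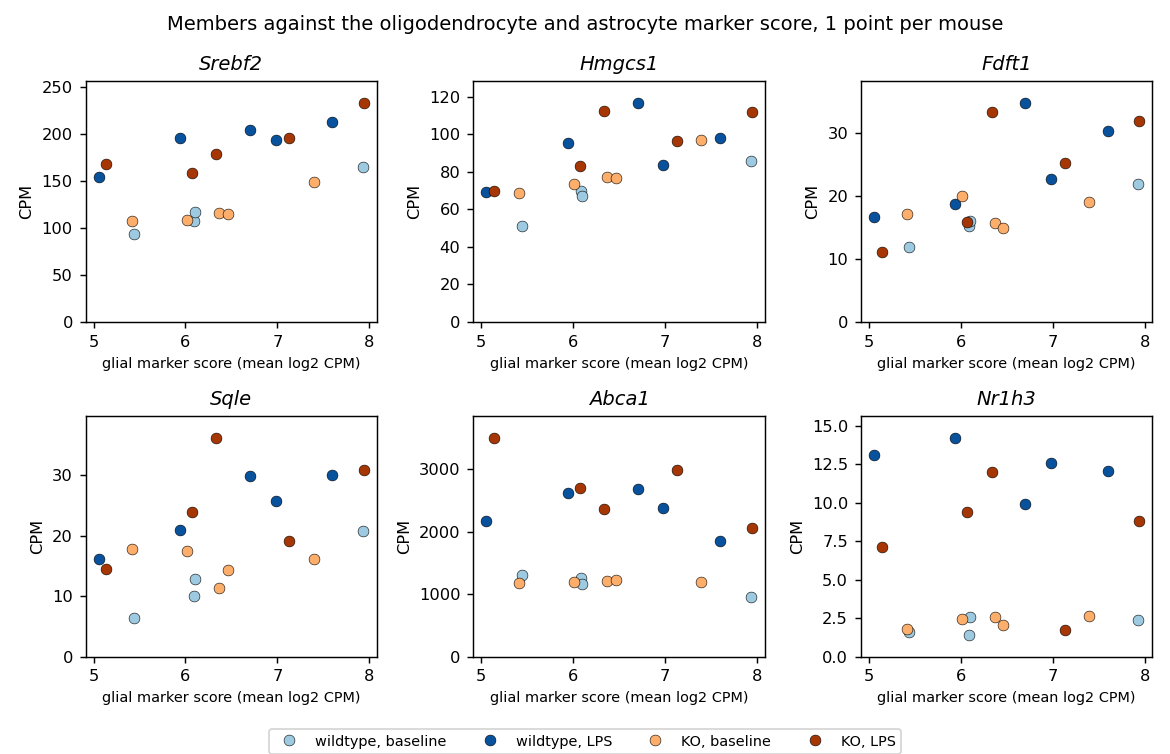
CPM of 6 members against the glial marker score (mean log2 CPM of 16 oligodendrocyte and astrocyte markers), with 1 point per mouse coloured by group. Over the 4 groups fitted together, *Srebf2*, *Hmgcs1*, *Fdft1* and *Sqle* rose with the score, but among KO controls the mice of lowest score were the highest in *Sqle*, and *Abca1* and *Nr1h3* did not rise with it.

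KO and wildtype mice were then compared at each treatment, which asks whether loss of DJ-1 changed these genes. At an unadjusted p under 0.05 and an absolute log2FC of at least 0.5, 0 of 30 members were higher and 0 lower in KO mice after LPS, where 0.544% and 0.763% of all genes were, and 0 of 30 at baseline in either direction, against 0.224% and 0.576%. No member had an unadjusted p under 0.05 in either comparison in the main edgeR fit or in DESeq2. With 1 mouse left out, edgeR's test after LPS gave *Nr1h2*, *Dhcr7*, *Abca1* and *Mvk* an unadjusted p of 0.0140 to 0.0454, short of the fold threshold. The log2FC of the members lay between -0.15 and 0.33 at baseline and between -0.66 and 0.38 after LPS, with a median SE of 0.170 and 0.158.

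At baseline, the smallest p belonged to *Hsd17b7*, with a log2FC of 0.20 ± 0.17 (edgeR adjusted p = 1), for which KO and wildtype controls overlapped. *Sqle* differed by 0.30 ± 0.30, and by 0.66 ± 0.30 without wildtype control 2, the mouse with the highest glial score of its group, which is past both thresholds (edgeR adjusted p = 1). After LPS the smallest p was that of *Nr1h3*, with a log2FC of -0.66 ± 0.32 (edgeR adjusted p = 1). Of the 5 LPS-treated KO mice, 4 lay below the lowest of the wildtype mice and 1, the fourth, among them. For this member, picked as the smallest of 30 and with no adjustment for that, edgeR's test gave p = 0.0561 and a two-sided exact permutation test of log2 CPM gave p = 0.0159, where the smallest value that 5 against 5 mice allow is 0.00794.

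The *Nr1h3* call changed with single mice and with settings of the fit. With no filter on low counts the log2FC was -0.67 ± 0.31 and with at least 10 counts in every library -0.67 ± 0.32, both just past the thresholds. Without the third KO mouse it was -0.40 ± 0.20, below the fold threshold, and without the fourth it was -0.87 ± 0.33, past both thresholds in edgeR's test. Monocyte markers summed to 137, 164, 352, 292 and 164 CPM in the 5 LPS-treated KO mice and to 279, 217, 281, 363 and 344 CPM in the wildtype ones, and all 5 monocyte markers had a log2FC below 0 (median -0.51, none called). The third KO mouse, lowest in *Nr1h3*, had the highest monocyte sum of its group, and the part of these cells in the *Nr1h3* values was not tested.

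The response to LPS itself was compared between genotypes by the interaction term. It was called for 0 of 30 members at an adjusted p under 0.05, and for 0.0% of all tested genes. No member had an unadjusted p under 0.05 in the main edgeR fit or in DESeq2. With 1 mouse left out, edgeR's test gave an unadjusted p of 0.0198 for *Mvk* (without wildtype control 2) and 0.0344 for *Nr1h3* (without LPS-treated KO mouse 4). *Nr1h3* had the smallest p again, with a term of -0.88 ± 0.49 log2 units, the KO response being the smaller (edgeR adjusted p = 1). The difference was -0.62 ± 0.30 without the third and -1.10 ± 0.48 without the fourth LPS-treated KO mouse (edgeR adjusted p = 1 and 1). Members called in 1 genotype only, *Sqle* and *Mylip* in wildtype and *Insig1*, *Insig2* and *Mvk* in KO mice, had interaction terms of -0.28 ± 0.41, 0.20 ± 0.23, 0.24 ± 0.20, -0.10 ± 0.18 and -0.37 ± 0.26 (edgeR, each adjusted p = 1), so that their responses were not shown to differ between genotypes.

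**Figure D5:**
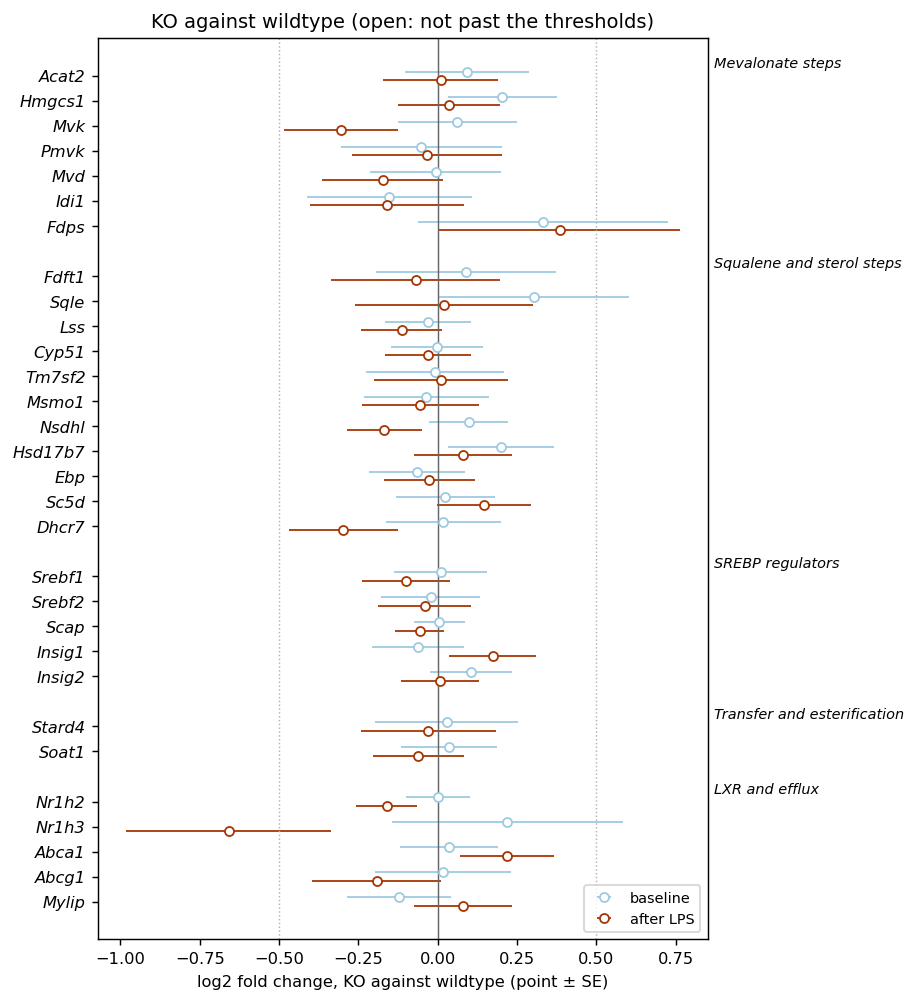
Log2FC of KO against wildtype (point) with its SE (line) for the 30 members at baseline (light blue) and after LPS (brown). All points are open, since no member passed the thresholds, and *Nr1h3* after LPS lies furthest from 0.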

How the data were processed

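RNA of CD11b+ brain cells was sequenced as stranded, ribosome-depleted libraries (19 mice). The authors trimmed reads with Cutadapt, aligned them to GRCm39 with STAR 2.7.9a and deposited raw counts per gene. The strand setting of the counting is not given in the sources used here. All 19 columns were mapped to mice by their labels. Symbols and transcript lengths came from GENCODE mouse. Genes passing filterByExpr (minimum count 10, minimum total 15) were scaled with TMM and tested over all 4 groups with edgeR 4.0.16 (quasi-likelihood, Benjamini-Hochberg adjustment, R 4.3.3). LPS calls needed an adjusted p under 0.05 and an absolute log2FC of at least 0.5, KO calls an unadjusted p under 0.05 and that log2FC, and interaction terms and slopes an adjusted p under 0.05, two-sided. SE is the absolute log2FC divided by the square root of F. The score of glial markers used log2 CPM with a prior count of 2, and was added after seeing the data. Promoter windows of the RefSeq table (GRCm38.p6) were located in GRCm39 by exact match. Alternatives were DESeq2 1.42.0, its size factors, other low-count filters, fewer groups, a replicate block, the glial score or the animal number of the label as covariate, and omission of single mice. All 30 members are named, and of the other pathway genes up to 2 per list and direction with the smallest p. Members, lists and motifs were chosen with earlier results of these data known. Some genes of the pathway are not reported here.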

Additional observations from a re-analysis of the deposited data

Results flagged for a closer look

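In 120 comparisons of the highest or lowest mouse with the rest of its group (30 members in 4 groups), 7 values stood apart by Dixon's criterion, and chance alone gives about 1 in 20. *Idi1* was at 2.38 CPM in LPS-treated KO mouse 5, the others of that group being at 4.85 to 5.01 CPM. *Insig1* was at 127 CPM in the same mouse (others 71.1 to 86.0 CPM), which had the lowest glial marker score of its group (5.14), the lowest mean log2 CPM of astrocyte markers of all 19 mice (4.23) and the lowest TMM factor (0.879). *Insig1* was also at 93.5 CPM in LPS-treated wildtype mouse 4 (others 73.5 to 77.4 CPM). *Srebf1* was at 145 CPM in LPS-treated KO mouse 1 (others 109 to 112 CPM) and *Srebf2* at 148 CPM in PBS-treated KO mouse 1 (others 107.7 to 116 CPM), the mice with the highest glial marker score of their groups. *Nr1h2* was at 74.9 CPM in LPS-treated wildtype mouse 2 (others 88.4 to 89.8 CPM). *Abcg1* was at 175 CPM in LPS-treated wildtype mouse 1 (others 78.4 to 104 CPM).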

How the results depend on the processing

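Of 29 LPS calls of members in the 2 genotypes, 21 were made under every alternative run, and no log2FC of a called member changed sign. The other 8 were lost in at least 1 setting: *Pmvk* and *Idi1* in both genotypes, also without a filter on low counts, *Sqle* and *Dhcr7* in wildtype and *Insig1* and *Insig2* in KO mice on leaving out 1 mouse. Members higher after LPS numbered 7 to 13 in wildtype and 8 to 11 in KO mice with 1 mouse left out, 8 in each genotype without a filter, and 15 in wildtype at any fold, against 10. Members lower in KO than wildtype mice after LPS numbered 0, and 1 (*Nr1h3*) without a filter on low counts, with at least 10 counts in every library, with the replicate block, and 0 to 1 with 1 mouse left out (without LPS-treated KO mouse 4). Members higher in KO mice at baseline numbered 0 to 1 with 1 mouse left out (*Sqle*, without PBS-treated wildtype mouse 2). Replicate numbers name different mice. Deviations of same-numbered PBS- and LPS-treated mice correlated across genes at -0.04 to 0.576 (mean 0.325) in wildtype and at 0.03 to 0.544 (mean 0.254) in KO mice, and at -0.58 to 0.421 between genotypes. Not every pair exceeded 0.1, and the numbers were not taken as pairs. Yet 5 of 9 wildtype and 6 of 10 KO libraries correlated best with their own number, although LPS-treated wildtype mouse 5 had no partner to match. These counts were not set against a chance level, and the means within genotype were above those between genotypes (-0.118 to -0.006). A sharing within genotype was therefore not excluded, and the unpaired fit was a choice that does not follow from this check. With the replicate block, the *Nr1h3* difference after LPS was -0.80 and past the thresholds and its interaction term -1.06 (edgeR adjusted p = 1 for both), and no LPS call was lost.

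The count of members rising with the glial marker score was 10, and 7 to 11 with 1 mouse left out, 7 without a filter, 13 with astrocyte markers only and 3 with oligodendrocyte markers only. Members falling with it numbered 0, 1 with astrocyte markers only (*Mylip*) and 0 to 1 with 1 mouse left out (*Abca1*). The cause of these shifts was not tested. Results for *Fdps* are limited by its 5 to 26 counts per library, and why they were so low was not tested.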
